A study of Mus musculus with 18 samples.

Results

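The mitochondrial ribosomal protein genes of the mouse carry symbols that start with Mrpl (large subunit) or Mrps (small subunit). They were taken here as the protein-coding rows with such a symbol and a sum of at least 180 counts over the 18 libraries, a mean of 10 per library. Of 82 rows with these symbols, 77 were protein-coding and 71 met the sum, out of 39017 genes in the table. The 71 members lie on many chromosomes of the nucleus, and all of them entered the tests. Of the 6 protein-coding rows below the sum, Mrpl22, Mrps23 and Mrps10 were listed at 0 in every library, Mrpl40 had 2 counts in all, Mrps18b had 19 and Mrps36 had 95. The other 5 rows were pseudogenes.

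RNA of spinal cord microglia was compared between 3 groups of 6 libraries each, all from female mice with the genotype label WT. Healthy mice with control treatment gave libraries 3, 4, 11, 12, 19 and 20, those with EAE (experimental autoimmune encephalomyelitis, in which immune cells attack myelin, a model of multiple sclerosis) and control treatment gave libraries 1, 2, 9, 10, 17 and 18, and EAE mice given metformin gave libraries 5, 6, 13, 14, 21 and 22. All 3 groups carry Tmem119-Cre, in which the microglial gene Tmem119 directs the recombinase, together with RiboTag, an allele that tags a ribosomal protein where Cre is active; no pull-down, age, dose or time is described, no healthy mice on metformin are among the groups, and the genotype named in the series title is not one of them. Nothing states that the libraries of a group came from separate animals, so p-values measure the spread between these libraries, which may be technical.

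Mitochondria keep their own ribosome, which translates the few messages encoded by mitochondrial DNA, all for subunits of the respiratory chain and the ATP synthase. Its proteins are encoded in the nucleus, made in the cytosol and imported, and they assemble on ribosomal RNA that the mitochondrion transcribes itself. Many have a counterpart in the bacterial ribosome, and the rest are found only in mitochondria. Metformin, a diabetes drug, is known to act on complex I of the respiratory chain.

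Library totals ran from 46.2 to 58.3 M counts (M, mega). TMM scaling factors, which adjust for a few genes taking a large share of the counts, were 1.08 to 1.20 in healthy, 0.80 to 0.96 in control EAE and 0.90 to 1.18 in metformin libraries, so levels below are in TMM-scaled CPM, counts brought to a common library size after that adjustment. Most microglial markers moved against the members: of 8 tested, 6 were called lower and 1 higher in control EAE against healthy libraries (median log2 change -1.73), and 5 higher and 1 lower in metformin against control EAE (median 0.91). Their summed level, 25910 to 28400 CPM in healthy, 21040 to 25120 in control EAE and 23450 to 27620 in metformin libraries, moved less. C1qa (named after its values were seen), which gave much of it, rose from a mean of 8497 to 17200 CPM in control EAE. Aif1 and Trem2 were listed at 0 in every library. The counts of called markers stand beside 31.7% of all genes called higher and 30.7% lower in control EAE. With metformin against control EAE these shares were 12.5% and 12.1%. Markers of other cells moved with the groups too. Summed levels of the monocyte-derived cell markers were 2.38 to 3.89 CPM in healthy, 59.4 to 101 in control EAE and 4.64 to 55.4 in metformin libraries, and 4 of the 5 tested rose in control EAE. Summed levels of 6 fibroblast and mural cell markers were 14.7 to 78.4, 369 to 827 and 36.0 to 516 CPM in the same order, with all 6 higher in control EAE. All 3 tested T cell markers rose, from 0 to 0.344 CPM summed in healthy to 1.33 to 5.31 in control EAE and 0.381 to 3.38 in metformin libraries. In metformin against control EAE, 1 monocyte-derived cell marker, 1 fibroblast and mural cell marker and no T cell marker were called lower. All 8 neuron markers fell, from 321 to 456 CPM summed to 142 to 230, and 2 of the 8 rose with metformin (median log2 change 0.54), to 193 to 462 CPM summed. Of 5 oligodendrocyte markers 4 fell in control EAE (median log2 change -0.75) and none was called with metformin. Of 6 astrocyte markers 2 rose and 3 fell in control EAE, and 1 rose and 1 fell with metformin. In lists this short, the astrocyte splits and the 2 of 8 neuron markers with metformin are not far from the shares of all genes. In bulk RNA, fewer cells of a type and less RNA per cell cannot be told apart, and the part of these markers in the results below was not tested.

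Some libraries were often at the edge of their group in the members' levels. Control EAE 10 was the highest of its group for 52 of the 71 members and metformin EAE 22 the lowest of its group for 43. Next by this measure came control EAE 17, the lowest for 39, healthy 3, the lowest for 33, metformin EAE 21, the highest for 33, and healthy 4, the highest for 32. Metformin EAE 22 also stood apart from its group, on the side of the healthy libraries, in other lists. Its fibroblast and mural cell markers summed to 36.0 CPM, with the next lowest of the group at 235.3, its monocyte-derived cell markers to 4.64 (next 26.0), its T cell markers to 0.381 (next 0.939), its neuron markers to 462 (next highest 249.5) and its mitochondrially encoded genes to 6596 (next 2650). The main counts of calls over all members are therefore given with and without control EAE 10 and metformin EAE 22.

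Levels differed widely between members. Per kilobase of the transcript with the longest coding part, the mean level over all libraries ran from 0.237 CPM per kb for Mrps35, a mitochondria-specific small subunit protein, to 79.3 for Mrpl36, the counterpart of bacterial L36. The median was 16.4 CPM per kb. Mrps34, a mitochondria-specific small subunit protein, came next to the top at 71.04 CPM per kb and Mrpl43, a mitochondria-specific large subunit protein, followed at 63.7. Near the bottom stood Mrpl23, a protein of the polypeptide exit region, at 0.444 CPM per kb and Mrps18c, a counterpart of bacterial S18, at 1.46. Between libraries of 1 group the coefficient of variation of a member was 8.60% in the median for healthy, 16.8% for control EAE and 11.7% for metformin libraries.

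In TMM-scaled levels, microglia RNA from control EAE mice held more mitochondrial ribosomal protein mRNA than that of healthy mice. The summed level of the 71 members was 1546 CPM at the lowest, 1648 at the median and 1772 at the highest in healthy libraries, and 2091, 2344 and 2967 CPM in control EAE libraries. The groups did not overlap on this scale, with means of 1651 ± 72.8 and 2415 ± 313 CPM (SD, n = 6 each). As a share of all counts in the library, without TMM scaling, the members made up 0.167% to 0.201% in healthy and 0.181% to 0.284% in control EAE libraries, and these ranges overlapped. The 0.284% was that of control EAE 10, and the other control EAE libraries were at 0.181% to 0.204%, close to the healthy ones. Metformin EAE libraries ran from 1635 CPM at the lowest through 1902 at the median to 2010 at the highest (mean 1879 ± 130, SD, n = 6), below every control EAE library, and their shares of the library total were 0.174% to 0.195%.

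**Figure D1:**
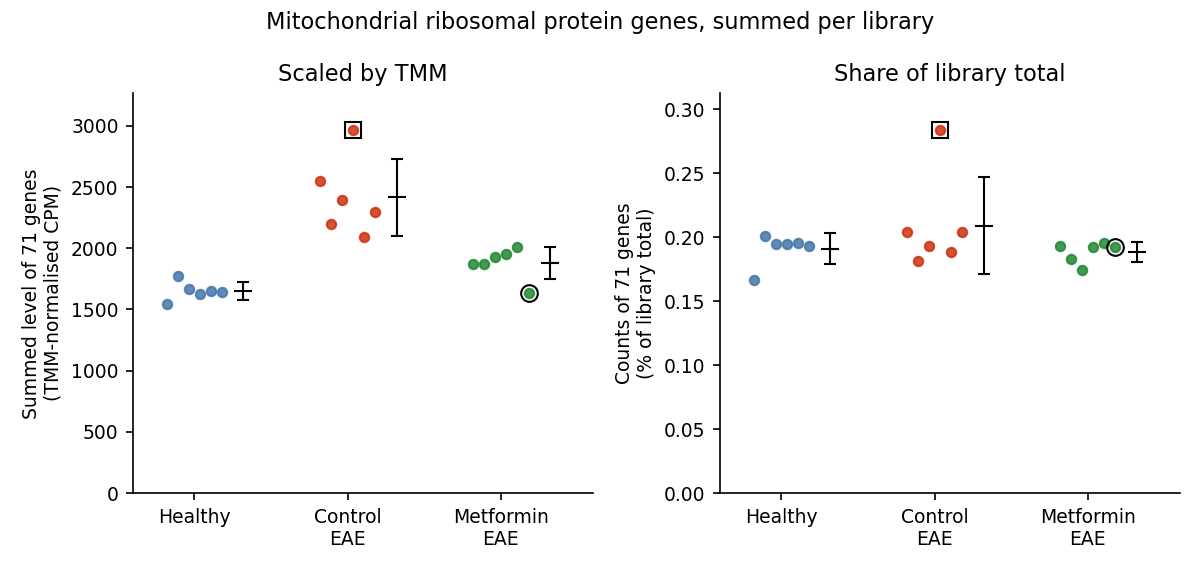
Summed level of the 71 genes in each library, in TMM-scaled CPM (left) and as a percent of the library total (right), by group; points are libraries, the bar to the right of each group is the mean ± SD (n = 6), the square marks control EAE 10 and the circle metformin EAE 22. On the left the control EAE libraries lie between 2091 and 2967 CPM, above all healthy and metformin libraries, and on the right the groups overlap.

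In control EAE against healthy libraries, 51 of the 71 members rose and 2 fell at an adjusted p under 0.05 (edgeR quasi-likelihood F test, Benjamini-Hochberg over all 16740 genes tested). The background was 31.7% of all genes called higher and 30.7% called lower. The members' median log2 change was 0.59, a 1.51-fold median, beside -0.0029 for all genes. For 45 of the risen members every control EAE library was above every healthy one, which 20.1% of all genes showed. Without control EAE 10 the counts were 50 and 2. They were 51 and 2 without metformin EAE 22, which is in neither group compared here but enters the shared filter, scaling and spread. Scaling by library totals alone lowered the median of all genes to -0.42 and gave 22 members higher and 17 lower, with the members' median at 0.17, which is 0.59 above that of all genes. Of all genes 15.57% were then called higher and 51.65% lower.

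The large subunit held most of the rise in number, with 37 of its 48 members higher and 2 lower and a median log2 change of 0.62. In the small subunit 14 of 23 were higher and none lower, with a median of 0.49. Of the 43 members with a bacterial counterpart 35 rose and 1 fell, and of the 28 mitochondria-specific members 16 rose and 1 fell. Among the 8 mitochondria-specific proteins of the small subunit only Mrps34 and Mrps26 (named after the values were seen) were called, with log2 changes of 0.59 and 0.50. These counts were not tested against each other. Leaving out control EAE 10 moved none of the counts by subunit or origin by more than 2, and leaving out metformin EAE 22 moved none. Scaled by library totals alone, 16 large subunit members were higher and 11 lower, and 6 small subunit members were higher and 6 lower.

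Mrpl54, a mitochondria-specific protein of the large subunit (chr10:81264713-81266934 in GRCm38, minus strand), had the highest log2 change. Its level was 13.8, 16.6 and 18.7 CPM (lowest, median and highest) in healthy and 34.4, 42.1 and 61.2 in control EAE libraries. The groups did not overlap, and the log2 change was 1.45 ± 0.16 (SE, adjusted p = 5.18e-07, edgeR), a 2.73-fold rise. In metformin EAE libraries the level was 15.9, 30.4 and 31.1 CPM, with metformin EAE 22 alone inside the healthy range and the rest between both other groups.

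Mrpl41, another mitochondria-specific large subunit protein (chr2:24974117-24975098, minus strand), was at 15.1, 18.7 and 23.0 CPM in healthy, 34.9, 46.0 and 67.1 in control EAE and 18.2, 31.7 and 37.5 in metformin libraries. Control EAE lay wholly above healthy, with a log2 change of 1.30 ± 0.17 (adjusted p = 2.14e-06, edgeR). Mrps28, the mitochondrial relative of bacterial S1, which binds mRNA (chr3:8802146-8923918, minus strand), was at 5.62, 6.75 and 9.47 CPM in healthy, 11.8, 15.6 and 27.1 in control EAE and 7.34, 10.2 and 12.9 in metformin libraries. Again no control EAE library reached down into the healthy range, and the log2 change was 1.26 ± 0.19 (adjusted p = 1.21e-05, edgeR).

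Mrpl27, the counterpart of bacterial L27 next to the peptidyl transferase centre (chr11:94653767-94660089, plus strand), was at 9.99, 10.2 and 11.2 CPM in healthy, 19.9, 23.1 and 29.6 in control EAE and 9.40, 15.8 and 17.4 in metformin libraries. The healthy libraries lay within a narrow band and every control EAE library far above it (log2 change 1.18 ± 0.13, adjusted p = 5.60e-07, edgeR). Mrpl12, the counterpart of the bacterial L7/L12 stalk that recruits translation factors (chr11:120484613-120489065, plus strand), was at 39.7, 46.6 and 56.2 CPM in healthy, 76.6, 93.3 and 147 in control EAE and 55.9, 64.1 and 70.9 in metformin libraries. Its groups did not overlap between healthy and control EAE, with a log2 change of 1.08 ± 0.13 (adjusted p = 1.16e-06, edgeR). Mrpl20, which in bacteria is needed for assembly of the large subunit (chr4:155802878-155809975, plus strand), was at 16.8, 19.2 and 23.8 CPM in healthy, 30.1, 35.5 and 66.1 in control EAE and 19.3, 24.8 and 27.4 in metformin libraries. Its highest value was control EAE 10, with the next control EAE library at 40.4 CPM, and the log2 change was 1.02 ± 0.16 (adjusted p = 1.66e-05, edgeR).

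Mrps18c, 1 of several mouse relatives of bacterial S18 (chr5:100798627-100804471, plus strand), rests on few counts. It was at 0.374, 0.515 and 0.966 CPM in healthy, 0.840, 1.06 and 2.22 in control EAE and 0.584, 0.790 and 1.45 in metformin libraries. The groups overlapped, and the log2 change of 1.17 ± 0.30 passed the test (adjusted p = 0.0022, edgeR). Its relative Mrps18a, which sits in the large subunit, was at 16.5, 18.7 and 20.03 CPM in healthy, 27.2, 32.8 and 42.8 in control EAE and 15.8, 23.2 and 24.4 in metformin libraries, and control EAE did not overlap with healthy (log2 change 0.86 ± 0.12, adjusted p = 3.88e-06, edgeR).

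The 3 members with the highest levels per kilobase also rose, by less than the members described so far but by no less than the members' median of 0.59. Mrpl43 (chr19:45004829-45006442, minus strand) was at 65.1, 73.0 and 75.6 CPM in healthy, 95, 106 and 135 in control EAE and 84.0, 86.2 and 89.95 in metformin libraries. Its log2 change was 0.59 ± 0.08 (adjusted p = 3.49e-06, edgeR), and all 3 groups stood apart. Mrpl36 was at 34.9, 41.5 and 43.0 CPM in healthy, 59.4, 67.5 and 85.1 in control EAE and 40.4, 54.0 and 60.0 in metformin libraries (control EAE against healthy 0.76 ± 0.10, adjusted p = 2.34e-06, edgeR). Mrps34 rose from 49.0, 52.3 and 61.9 CPM to 71.02, 78.6 and 93.0 (0.59 ± 0.09, adjusted p = 7.69e-06, edgeR), with metformin libraries at 50.8, 63.0 and 64.0. In the small subunit, Mrps12, the counterpart of the S12 protein at the decoding centre, rose by 0.84 ± 0.14 in log2 (adjusted p = 2.71e-05, edgeR), and Mrps9, the counterpart of S9, which contacts the tRNA, by 0.75 ± 0.14 (adjusted p = 0.000175, edgeR). Mrpl32, whose maturation by a mitochondrial protease is known to control assembly, rose by 0.69 ± 0.12 (adjusted p = 6.62e-05, edgeR), and Mrpl58, a peptidyl-tRNA hydrolase built into the large subunit, by 0.58 ± 0.12 (adjusted p = 0.000272, edgeR).

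A minority of members did not pass the test in control EAE against healthy libraries. They were 18 in number, with log2 changes from -0.10 to 0.38, and 16 of these were called in no comparison: Mrpl1, Mrpl3, Mrpl37, Mrpl39, Mrpl47, Mrpl49, Mrpl50, Mrps2, Mrps5, Mrps22, Mrps25, Mrps27, Mrps30, Mrps31, Mrps33 and Mrps35. Mrps2, the counterpart of bacterial S2 and named here after its values were seen, was at 62.3, 66.5 and 72.5 CPM in healthy, 47.1, 69.1 and 73.4 in control EAE and 65.1, 72.1 and 75.6 in metformin libraries. The groups overlapped, the lowest value being control EAE 10, which was the highest of its group for most members, and the log2 change was -0.01 ± 0.09 (adjusted p = 0.934, edgeR). Mrps30, a large subunit protein in spite of its symbol, had a log2 change of 0.14 ± 0.08 (adjusted p = 0.133, edgeR). Mrps35, with the lowest level per kilobase, had one of 0.38 ± 0.27 (adjusted p = 0.226, edgeR). Among the risen members Mrpl10, the base of the stalk, had the smallest change, 0.17 ± 0.07 (adjusted p = 0.0437, edgeR), and lost its call when any of 9 libraries was left out, its adjusted p then reaching 0.116 at the highest; its log2 change was -0.26 when scaled by library totals alone and -0.11 with the trend on gene length removed.

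**Figure D2:**
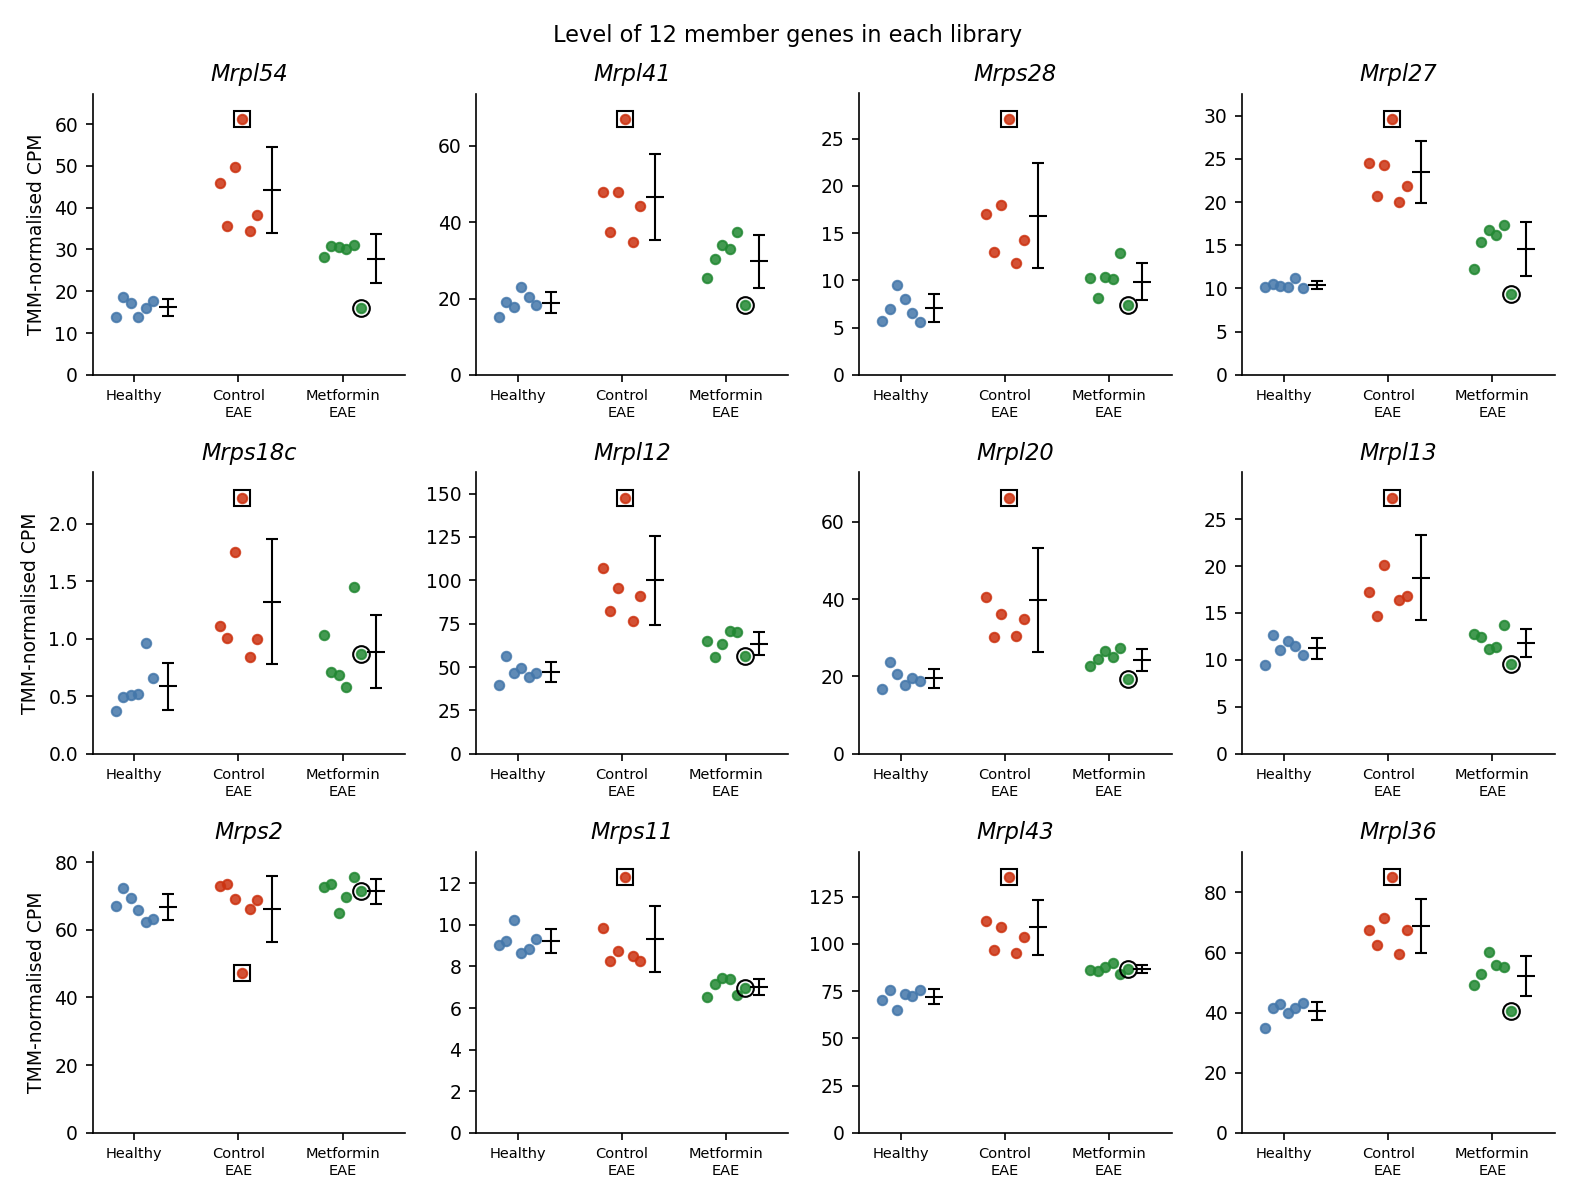
Level of 12 members in each library, in TMM-scaled CPM, by group; points are libraries, the bar to the right of each group is the mean ± SD (n = 6), the square marks control EAE 10 and the circle metformin EAE 22. In the top row each control EAE library lies above all healthy ones, with Mrpl54 at 34.4 to 61.2 CPM against 13.8 to 18.7, and in the bottom row Mrps2 shows overlapping groups.

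In TMM-scaled levels, metformin EAE libraries held less mitochondrial ribosomal protein mRNA than control EAE libraries. Of the 71 members 43 fell and none rose at an adjusted p under 0.05 (edgeR), against a background of 12.1% of all genes called lower and 12.5% called higher. The median log2 change was -0.37 for the members and 0.01 for all genes. For 27 members every metformin library was below every control EAE library, which 5.44% of all genes showed, and no member was wholly above, as 4.9% of all genes were. Without metformin EAE 22, 41 members fell and none rose, and without control EAE 10, 42 fell and none rose. With scaling by library totals alone 16 fell and 2 rose, as the median of all genes moved to 0.23 and that of the members to -0.17, which is 0.40 below it. Of all genes 3.68% were then called lower and 28.15% higher.

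Both subunits took part, with 32 of 48 large subunit members lower (median log2 change -0.37) and 11 of 23 small subunit members lower (median -0.39). These counts were 31 and 11 without control EAE 10 and 30 and 11 without metformin EAE 22. The largest fall was that of Mrps28, by 0.78 ± 0.19 on the log2 scale (adjusted p = 0.00655, edgeR), although its groups overlapped. Mrpl20 fell by 0.71 ± 0.16 (adjusted p = 0.00407, edgeR) and Mrpl27 by 0.69 ± 0.13 (adjusted p = 0.00215, edgeR), both with no overlap between the groups. Mrpl54 fell by 0.67 ± 0.16 (adjusted p = 0.00585, edgeR), and Mrpl12 by 0.65 ± 0.13 (adjusted p = 0.00258, edgeR), again with every metformin library below every control EAE library. Mrpl41 fell by 0.65 ± 0.16 with overlapping groups (adjusted p = 0.00824, edgeR).

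Mrpl13, an early-assembling protein of the large subunit in bacteria (chr15:55534094-55557748, minus strand), was at 9.50, 11.3 and 12.7 CPM in healthy, 14.6, 17.1 and 27.2 in control EAE and 9.53, 11.9 and 13.7 in metformin libraries. Control EAE stood above both other groups, which covered nearly the same range. Its log2 change was 0.74 ± 0.13 in control EAE against healthy (adjusted p = 8.16e-05), -0.66 ± 0.13 in metformin against control EAE (adjusted p = 0.00272) and 0.08 ± 0.13 in metformin against healthy (adjusted p = 0.679, edgeR for all 3). Mrps11, a counterpart of bacterial S11 at the platform of the small subunit (chr7:78783119-78792989, plus strand), took another course. It was at 8.66, 9.14 and 10.2 CPM in healthy, 8.24, 8.62 and 12.3 in control EAE and 6.52, 7.05 and 7.46 in metformin libraries, the last below all others. Its log2 change was -0.41 ± 0.11 in metformin against control EAE (adjusted p = 0.00906) and -0.39 ± 0.11 in metformin against healthy (adjusted p = 0.00639), with 0.02 ± 0.11 in control EAE against healthy (adjusted p = 0.901, edgeR for all 3).

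Some risen members did not pass the test in metformin against control EAE libraries. Mrps9 had a log2 change of -0.25 ± 0.14 (adjusted p = 0.217), Mrpl32 of -0.27 ± 0.12 (adjusted p = 0.11) and Mrps18c of -0.58 ± 0.30 (adjusted p = 0.158, edgeR for all 3). Each group enters more than 1 comparison, so values of different comparisons are set side by side here and no relation between comparisons was computed.

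Metformin EAE against healthy libraries gave smaller differences. Of the 71 members 24 were higher and 3 lower (edgeR, adjusted p under 0.05), where 20.3% of all genes were called higher and 16.3% lower. The members' median log2 change was 0.18, beside -0.00092 for all genes. The groups did not overlap for Mrpl43 and Mrps24 (named after its values were seen), which were higher in metformin, and Mrps11, which was lower; of all genes 6.82% were higher and 6.12% lower in this way. Without metformin EAE 22, 30 members were called higher and 3 lower, beside 23.9% and 22.5% of all genes. With no overlap 24 were higher, against 18.9% of all genes. The higher count fell to 14 without metformin EAE 13, 14 or 21, to 15 without healthy 12 and to 14 without healthy 3 and 4 together. In these fits 17.1% to 18.9% of all genes were called higher, so the members stood close to that share. The higher count was 32 without control EAE 10, beside 23.5% of all genes, and the lower count was 5 without control EAE 1 or 10. With library totals alone 2 members were higher and 8 lower, beside 11.51% and 28.57% of all genes. The median of all genes was then -0.20 and that of the members -0.03.

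The largest differences here were again those of Mrpl54, at 0.78 ± 0.16 (adjusted p = 0.000866, edgeR), and Mrpl41, at 0.65 ± 0.16 (adjusted p = 0.00442, edgeR). Mrps9 was higher by 0.50 ± 0.14 (adjusted p = 0.0105, edgeR), Mrpl27 by 0.49 ± 0.13 (adjusted p = 0.00668, edgeR) and Mrps28 by 0.48 ± 0.19 (adjusted p = 0.0496, edgeR). Mrps28 lost its call when any of 12 libraries was left out, its adjusted p (edgeR) then reaching 0.13 at the highest. The 3 that were lower were Mrps11, Mrpl23 at -1.07 ± 0.34 (adjusted p = 0.0182, edgeR) and Mrpl48 at -0.45 ± 0.11 (adjusted p = 0.00307, edgeR). Metformin EAE 22 lay within the healthy range for 38 of the 51 members that rose in control EAE.

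**Figure D3:**
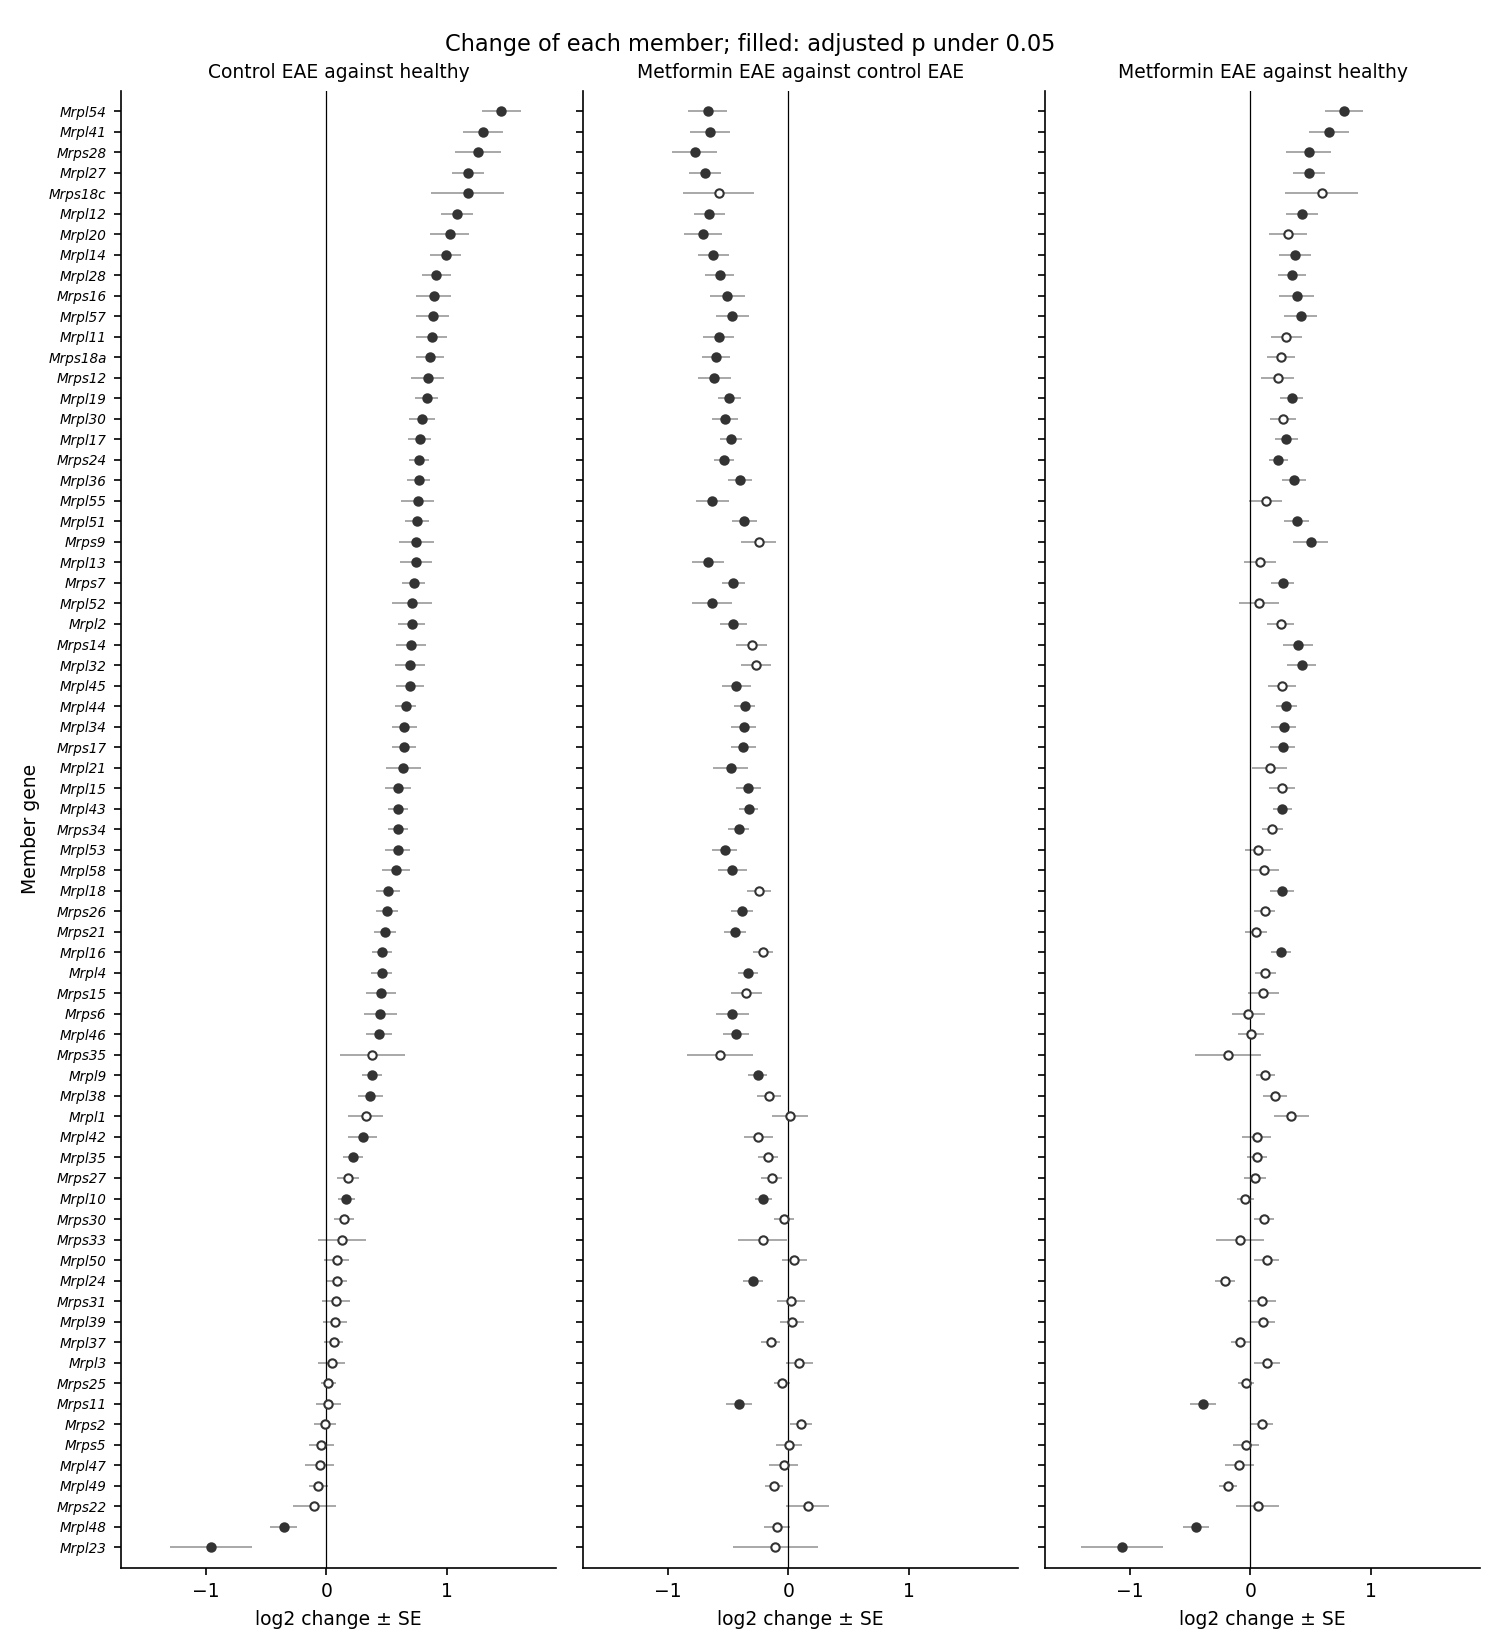
Log2 change ± SE of each of the 71 members in the 3 comparisons, ordered by control EAE against healthy; filled points have an adjusted p under 0.05 (edgeR). The left panel holds 51 filled points above 0 and 2 below, the middle panel 43 below 0 and none above, and the right panel 24 above and 3 below.

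Gene length moved with these values, and its part in them was not tested beyond the step given here. In the table as a whole shorter genes had higher log2 changes in control EAE against healthy libraries, with medians of 0.26, 0.11, -0.05 and -0.25 from the shortest to the longest of 4 equal bins by exon length. The members' medians in the same bins were 0.66, 0.46, 0.32 and 0.26, above that of all genes in each, and 33 of the 71 members lay in the shortest bin; 10 lay in the longest. With the trend on length removed 44 members rose and 2 fell in this comparison, with a median of 0.38, beside 29.1% of all genes higher and 31.5% lower. In metformin against control EAE libraries 38 fell and none rose after the same step, with a median of -0.34, beside 11.6% of all genes lower and 8.28% higher. In metformin against healthy libraries 7 were higher and 6 lower, both below the shares of all genes, 16.2% and 20.9%.

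Promoter sequences from RefSeq (GRCm38.p6, 250 bases before to 50 after the start) were at hand for 62 members, in 68 windows. They were searched on both strands for the letters of 4 motifs known from genes of this kind. The NRF1-type letters GCGCANGCG, in which N is any base, were in 14 of the 68 windows (20.6%), against 6.25% of all 32851 windows of that length. The ETS or GABP-type letters CCGGAAG were in 22 (32.4%, against 8.86%), and the YY1-type letters AAGATGGCG in 8 (11.8%, against 1.40%). At least 1 of these 3 was in 38 windows (55.9%, against 14.8%), while CCAAT was in 27 (39.7%, against 37.4%). A match is only a run of letters and was not tested for binding. The windows below are those of the 4 members with the highest log2 changes in control EAE that have an entry, and of Mrps2, which was called in no comparison. Capitals mark matches to any of the 4 motifs on either strand.
Mrpl41 promoter, chr2:24975049-24975348, minus strand: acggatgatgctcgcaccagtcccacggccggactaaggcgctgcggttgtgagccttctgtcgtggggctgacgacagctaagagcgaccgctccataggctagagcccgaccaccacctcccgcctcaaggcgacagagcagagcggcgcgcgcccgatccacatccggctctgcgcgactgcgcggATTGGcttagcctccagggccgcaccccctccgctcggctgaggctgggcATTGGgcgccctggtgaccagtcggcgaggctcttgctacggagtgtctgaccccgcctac
Mrpl27 promoter, chr11:94653541-94653840, plus strand: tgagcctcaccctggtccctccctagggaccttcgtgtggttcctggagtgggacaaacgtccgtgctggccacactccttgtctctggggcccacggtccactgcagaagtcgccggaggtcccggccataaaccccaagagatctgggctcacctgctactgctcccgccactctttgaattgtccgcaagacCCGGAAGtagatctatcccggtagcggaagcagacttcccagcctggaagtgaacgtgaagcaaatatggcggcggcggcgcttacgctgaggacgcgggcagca
Mrps18c promoter, chr5:100798509-100798808, plus strand: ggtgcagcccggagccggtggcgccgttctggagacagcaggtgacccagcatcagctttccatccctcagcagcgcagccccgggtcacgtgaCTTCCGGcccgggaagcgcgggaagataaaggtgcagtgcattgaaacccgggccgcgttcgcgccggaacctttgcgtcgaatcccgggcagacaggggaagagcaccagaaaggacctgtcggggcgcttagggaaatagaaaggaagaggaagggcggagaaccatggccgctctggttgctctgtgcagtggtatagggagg
Mrpl12 promoter, chr11:120484387-120484686, plus strand: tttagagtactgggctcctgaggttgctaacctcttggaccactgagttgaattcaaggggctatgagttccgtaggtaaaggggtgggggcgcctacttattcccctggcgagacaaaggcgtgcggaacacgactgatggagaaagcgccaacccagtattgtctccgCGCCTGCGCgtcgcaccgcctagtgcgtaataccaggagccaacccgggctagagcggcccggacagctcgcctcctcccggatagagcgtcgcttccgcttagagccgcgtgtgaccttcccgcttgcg
Mrps2 promoter, chr2:28467816-28468115, plus strand: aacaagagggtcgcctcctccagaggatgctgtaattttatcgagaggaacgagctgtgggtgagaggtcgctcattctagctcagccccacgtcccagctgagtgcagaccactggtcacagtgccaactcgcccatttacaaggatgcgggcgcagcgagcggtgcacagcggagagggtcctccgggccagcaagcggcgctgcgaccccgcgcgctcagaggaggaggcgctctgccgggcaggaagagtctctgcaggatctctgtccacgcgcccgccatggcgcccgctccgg

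The risen members did not share 1 motif in these windows. Mrpl41 has CCAAT letters, on the opposite strand, that start 61 and 11 bases before the gene's start and none of the other 3 motifs. Mrpl27 and Mrps18c each have CCGGAAG once, starting 55 and 156 bases before the start, and Mrpl12 has the NRF1-type letters once, 80 bases before it. None of the 4 was found in the window of Mrps2. Other members called in no comparison did have matches, such as Mrpl3, Mrps27 and Mrpl39 (named after the values were seen). Risen members such as Mrpl55, Mrps7 and Mrps14 (named after the values were seen) had none. Matches were not compared between called and uncalled members.

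The only members that fell in control EAE, Mrpl23 and Mrpl48, have near-identical processed pseudogenes with rows of their own. Mrpl23 (chr7:142532686-142540747, plus strand) had 314 counts over all libraries and its pseudogene Mrpl23-ps1 (chr2:74591330-74591909, minus strand) 49852. The coding sequence of Mrpl23 is identical to the pseudogene over 421 of its 516 bases. Mrpl48 (chr7:100545751-100608301, minus strand) had 15701 counts and Mrpl48-ps (chr4:88599175-88599810, minus strand) 31353, and the pair is 98.1% identical over 633 bases, with the longest identical run 210 bases. The stretches of 90 bases shown are those with the most mismatches in each aligned pair, read from GENCODE M21 transcripts, with mismatches in capitals and positions counted from the first coding base or, for the pseudogene, from the first base of its transcript.
Mrpl23 coding bases 96 to 185: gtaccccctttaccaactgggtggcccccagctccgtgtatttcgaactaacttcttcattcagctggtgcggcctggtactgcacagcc
Mrpl23-ps1 transcript bases 35 to 124: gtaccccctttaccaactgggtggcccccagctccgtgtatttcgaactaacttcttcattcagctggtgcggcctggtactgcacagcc
Mrpl48 coding bases 360 to 449: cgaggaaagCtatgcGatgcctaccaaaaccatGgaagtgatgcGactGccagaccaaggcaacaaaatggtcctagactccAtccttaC
Mrpl48-ps transcript bases 360 to 449: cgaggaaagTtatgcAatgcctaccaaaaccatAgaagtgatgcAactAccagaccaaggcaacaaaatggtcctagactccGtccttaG

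In the Mrpl23 pair no base differs, and in the Mrpl48 pair 7 of the 90 do. The row of Mrpl23 was at 0.317, 0.479 and 0.673 CPM in healthy and 0.187, 0.238 and 0.341 in control EAE libraries, with overlapping groups and a log2 change of -0.96 ± 0.34 (adjusted p = 0.019, edgeR). The row of Mrpl23-ps1 went the other way, from 37.5, 44.0 and 46.1 CPM to 55.1, 66.8 and 98.8, without overlap (0.71 ± 0.11, adjusted p = 1.64e-05, edgeR), and was at 45.7, 48.4 and 57.1 CPM in metformin libraries. The row of Mrpl48 was at 18.6, 19.8 and 20.99 CPM in healthy, 13.8, 14.9 and 18.9 in control EAE and 11.9, 14.3 and 18.9 in metformin libraries (control EAE against healthy -0.35 ± 0.11, adjusted p = 0.00759, edgeR). Mrpl48-ps had a log2 change of 0.12 ± 0.08 (adjusted p = 0.191, edgeR).

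With pseudogene counts added to their gene, a step chosen after the data were seen, 51 members rose and none fell in control EAE. Mrpl23 was then higher by 0.70 ± 0.11 and Mrpl48 had a log2 change of -0.04 ± 0.06. The same step gave 0 higher and 44 lower in metformin against control EAE, and 24 higher and 1 lower in metformin against healthy libraries. Of all genes 31.74% were then higher and 30.68% lower in control EAE against healthy. The shares were 12.48% and 12.1% in metformin against control EAE, and 20.34% and 16.28% in metformin against healthy. Of the rows below the sum, Mrps18b had 19 counts and its processed pseudogene Gm13552 had 6527, and Mrps36, also known as a subunit of 2-oxoglutarate dehydrogenase, had 95 while Mrps36-ps1 had 4144. The row of Gm13552 rose by 0.67 ± 0.14 (adjusted p = 0.000314, edgeR) and that of Mrps36-ps1 by 0.91 ± 0.17 (adjusted p = 0.000136, edgeR) in control EAE. Which transcript the reads came from cannot be told from these rows, and how reads with several matches were counted is not given in the sources used here.

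**Figure D4:**
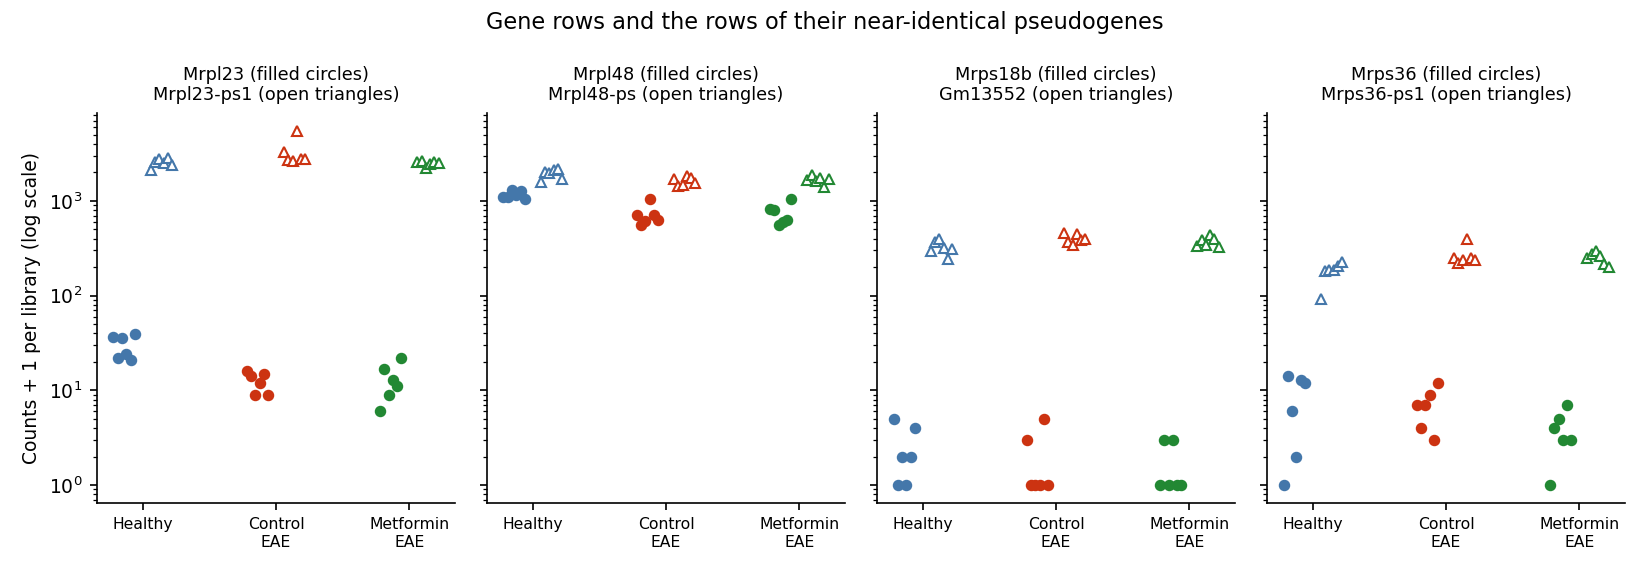
Counts + 1 per library (log axis) in the rows of Mrpl23, Mrpl48, Mrps18b and Mrps36 (filled circles) and of a near-identical processed pseudogene of each (open triangles), by group. In each panel the pseudogene row holds more counts than the gene row in every library, by about 2 orders of magnitude for Mrpl23.

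Near-identical copies were not limited to these. In all 13 members shared at least 100 bases at 95% identity or more with a transcript of a gene elsewhere in the genome, and 9 of these were called higher and 2 lower in control EAE. Of the 58 without such a copy 42 were higher and none lower, with a median log2 change of 0.59. In metformin against control EAE 36 of those 58 fell and none rose. The counts in this paragraph stand beside 31.7% of all genes called higher and 30.7% lower in control EAE. With metformin 12.5% were higher and 12.1% lower. A match of the same size in 9 of the 58, such as that of Mrpl43 to Twnk on the opposite strand, was to a gene that overlaps the member at its own locus. Exon bases were shared with another gene, on either strand, by 31 members, of which 22 rose and 1 fell in control EAE; of the other 40, 29 rose and 1 fell. Without control EAE 10 these were 23 and 1, and 27 and 1. Whether counting used the strand is not stated, so reads of such overlapping genes cannot be told apart.

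The 5 proteins of the mitochondrial ribosome that carry other symbols were read beside the members. Aurkaip1, a small subunit protein first known from its binding to Aurora A kinase, was at 47.1, 50.6 and 54.6 CPM in healthy, 91.1, 112 and 138 in control EAE and 51.0, 72.9 and 81.4 in metformin libraries. It rose without overlap in control EAE (1.15 ± 0.11, adjusted p = 1.52e-07, edgeR) and fell by 0.67 ± 0.11 in metformin against control EAE (adjusted p = 0.00104, edgeR). Chchd1 rose by 0.91 ± 0.11 (adjusted p = 1.04e-06, edgeR), Gadd45gip1 by 0.44 ± 0.09 (adjusted p = 0.000368, edgeR) and Dap3, the GTP-binding protein of the small subunit, by 0.42 ± 0.12 (adjusted p = 0.00446, edgeR). Ptcd3, a pentatricopeptide repeat protein at the mRNA entry, did not pass the test at -0.28 ± 0.14 (adjusted p = 0.0995, edgeR). In metformin against control EAE 3 of the 5 fell and none rose. Of all genes 31.7% were called higher and 30.7% lower in control EAE, and 12.1% lower with metformin. Scaled by library totals alone 2 rose and 1 fell in control EAE, and 1 fell with metformin. Of all genes 15.57% were then higher and 51.65% lower in control EAE, and 3.68% lower with metformin.

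The counts of the lists that follow depended on the scaling, as given after them, and stand beside these shares of all genes called: 31.7% higher and 30.7% lower in control EAE, and 12.5% higher and 12.1% lower with metformin. Among 28 tested genes of ribosome assembly and rRNA modification 11 rose and 2 fell in control EAE, with a median log2 change of 0.21, and 2 rose and 7 fell with metformin. That is 39.3% higher and 7.14% lower in the first comparison, and 7.14% higher and 25% lower in the second. Mpv17l2, an assembly factor, was listed at 0 throughout. Rcc1l, an assembly factor that joins the pseudouridylation module of the mitochondrial rRNA, rose from 10.9, 12.5 and 13.2 CPM to 19.9, 22.01 and 25.9 without overlap (0.87 ± 0.09, adjusted p = 2.26e-07, edgeR) and was at 14.2, 15.8 and 17.04 CPM with metformin, apart from both. Trub2, a pseudouridine synthase of the same module, rose by 0.73 ± 0.09 (adjusted p = 1.27e-06, edgeR) and fell by 0.34 ± 0.09 with metformin (adjusted p = 0.00931, edgeR). Of 17 translation factors 7 rose and 1 fell in control EAE, and none rose and 1 fell with metformin, so that 41.2% were higher and 5.88% lower in control EAE and 5.88% lower with metformin. The one that fell with metformin was Tsfm, the exchange factor of the elongation factor Tu, by 0.49 ± 0.15 (adjusted p = 0.0243, edgeR), after a rise of 0.86 ± 0.15 in control EAE (adjusted p = 7.77e-05, edgeR). Gfm2, which recycles the ribosome after termination, rose in control EAE by 0.96 ± 0.13 (adjusted p = 4.83e-06, edgeR) and had a change of -0.20 ± 0.13 with metformin (adjusted p = 0.286, edgeR). Pdf, which removes the formyl group from new proteins, had a change of 0.05 ± 0.07 in control EAE (adjusted p = 0.523, edgeR). Of 20 aminoacyl-tRNA synthetases and their partners 6 rose and 1 fell in control EAE, and 1 rose and 1 fell with metformin; the 30.0% higher in control EAE is close to the share of all genes, and the 5.0% each way with metformin is below it. Nars2, the asparaginyl-tRNA synthetase, rose by 0.87 ± 0.16 in control EAE (adjusted p = 7.98e-05, edgeR). Gatc, a subunit of the amidotransferase that makes glutaminyl-tRNA, fell by 0.65 ± 0.11 in control EAE (adjusted p = 3.2e-05, edgeR) and rose by 0.38 ± 0.11 with metformin (adjusted p = 0.0149, edgeR), while Tars2, the threonyl-tRNA synthetase, fell by 0.29 ± 0.10 with metformin (adjusted p = 0.037, edgeR). With library totals alone the split turned, as the shares of all genes did, to 15.57% higher and 51.65% lower in control EAE. There 3 assembly and modification genes were higher and 14 lower, 2 translation factors higher and 7 lower, and 2 synthetases and partners higher and 8 lower. With metformin the same scaling gave 6 higher and 1 lower, 2 and 0, and 3 and 0, beside 28.15% higher and 3.68% lower of all genes. Without control EAE 10, 5 translation factors rose in control EAE, and with metformin 2 translation factors fell and 1 assembly gene rose. Without metformin EAE 22, 2 synthetases or partners fell in control EAE. The fall of Tars2 with metformin was not called without control EAE 10 or without metformin EAE 22.

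The genes of mitochondrial DNA upkeep, transcription and RNA processing were called about as often as all genes or less in control EAE, with 6 of 23 higher and 6 lower (26.1% each, against 31.7% and 30.7%). With metformin 2 rose and 1 fell, 8.70% and 4.35% of the 23, and the 2 became 1 without control EAE 10 and also without metformin EAE 22. Mgme1, an exonuclease of mitochondrial DNA replication, was at 35.6, 40.5 and 44.6 CPM in healthy and 17.8, 23.98 and 24.8 in control EAE libraries and fell without overlap, by 0.82 ± 0.10 (adjusted p = 8.89e-07, edgeR). Hsd17b10, a subunit of the mitochondrial RNase P, rose by 0.48 ± 0.09 (adjusted p = 0.000148, edgeR) and fell by 0.33 ± 0.09 with metformin (adjusted p = 0.0146, edgeR). Fastkd1, an RNA-binding protein, fell by 0.45 ± 0.15 (adjusted p = 0.015, edgeR) and rose by 0.46 ± 0.15 with metformin (adjusted p = 0.0323, edgeR). Of 10 transcription factors and coactivators that act on nuclear genes for mitochondria 2 rose and 4 fell in control EAE, and 4 rose and 1 fell with metformin. In a list of 10 the first pair is near what the shares of all genes give, and the 4 that rose with metformin stand beside 12.5% of all genes. Gabpb2, a subunit of the ETS-type factor GABP, fell from 48.6, 55.7 and 71.2 CPM to 27.5, 35.1 and 37.0 (-0.76 ± 0.10, adjusted p = 4.17e-06, edgeR) and was at 43.3, 47.8 and 56.9 CPM with metformin, above all control EAE libraries. Its relative Gabpb1 fell by 0.42 ± 0.09 in control EAE (adjusted p = 0.000714, edgeR), and Esrra, the estrogen-related receptor alpha, rose by 0.32 ± 0.08 (adjusted p = 0.00109, edgeR) and fell by 0.39 ± 0.08 with metformin (adjusted p = 0.0023, edgeR). The rise of Esrra became a log2 change of -0.10 when scaled by library totals alone. Under that scaling none of the 23 genes of the former list was higher and 13 were lower in control EAE, and 10 were higher with metformin. Of the latter 10 genes 1 was higher and 7 lower, and 5 were higher with metformin. These stand beside 15.57% of all genes higher and 51.65% lower in control EAE, and 28.15% higher with metformin, under the same scaling.

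The messages that this ribosome translates had log2 changes of the other sign. All 7 tested mitochondrially encoded genes fell in control EAE, with a median log2 change of -1.44, and 5 of the 7 rose with metformin against control EAE, with a median of 1.16. The 5 became 1 without metformin EAE 22, 2 without control EAE 1 or 2, and 3 without control EAE 9. mt-Co1, a subunit of cytochrome c oxidase, was at 599, 1315 and 1420 CPM in healthy, 234, 448 and 599 in control EAE and 592, 697 and 1760 in metformin libraries. mt-Nd5, a subunit of complex I, fell by 1.73 ± 0.39 (adjusted p = 0.000922, edgeR). The summed level of the 7 varied widely within a group, from 1714 to 4931 CPM in healthy and from 1535 to 6596 CPM in metformin libraries. Healthy 3 and 4 were at 1867 and 1714 CPM, near the 700 to 1535 CPM of control EAE libraries, and the other healthy libraries at 4374 to 4931. The size of the fall therefore rests largely on those others. As a share of the library total, without TMM scaling, the 7 made up 0.195% to 0.587% in healthy libraries. The shares were 0.0561% to 0.138% in control EAE, below both other groups, and 0.150% to 0.777% in metformin libraries. The rows of mt-Co2, mt-Co3, mt-Atp6 and mt-Atp8 were listed at 0 in every library. The library protocol enriches mRNA, and how far that step sets the level of mitochondrial transcripts was not tested.

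**Figure D5:**
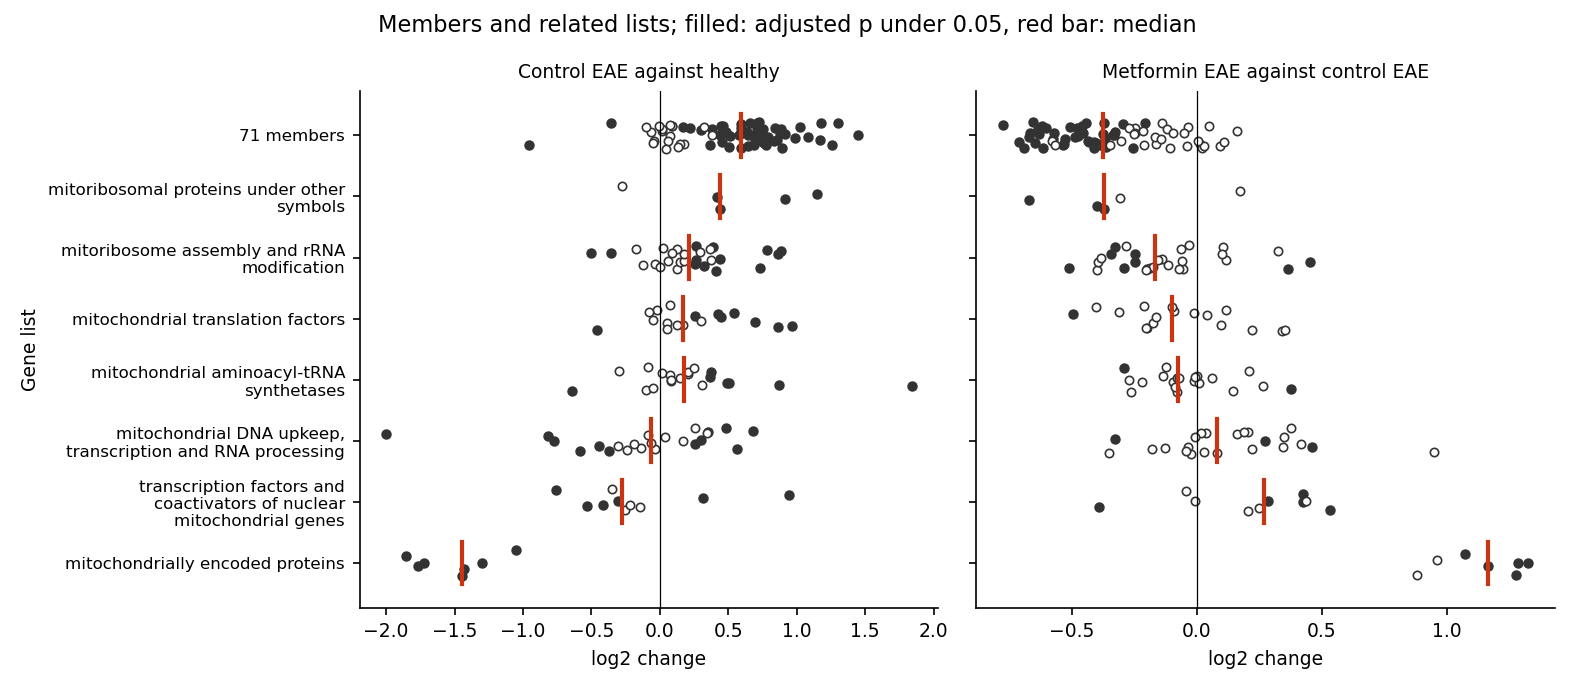
Log2 change of each tested gene in the members and in 7 related lists, in control EAE against healthy (left) and metformin EAE against control EAE (right); filled points have an adjusted p under 0.05 (edgeR) and red bars are list medians. The members' medians are 0.59 and -0.37, and those of the mitochondrially encoded genes are -1.44 and 1.16.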

How the data were processed

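The data are counts of reads per gene in 18 libraries, deposited by the authors as whole numbers for 39017 Ensembl genes. The submitters' processing notes name bcl2fastq 2.17, Trimmomatic, FastQC and the build mm10; per the labels' protocols, libraries were made with a stranded kit after mRNA enrichment. Not given in the sources used here are the aligner, the counter with its strand setting, and the authors' annotation. Symbols, positions and transcript lengths came from GENCODE M21 (GRCm38).

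Genes passing filterByExpr (minimum count 10, minimum total 15) numbered 16740. All 18 libraries entered 1 edgeR 4.0.16 fit of 3 group means (TMM, robust quasi-likelihood F test, R 4.3.3), which was first tested on simulated counts. A call is a Benjamini-Hochberg adjusted p under 0.05 over all genes tested, and the standard error is the log2 change divided by the square root of F. Near-identical copies were found with blastn (at least 95% identity over 100 bases). No 2 libraries of a group were near duplicates (lowest chi-square per degree of freedom 15.5). Alternatives were DESeq2 1.42.0, RLE scaling, library totals alone, other filters, the 2 groups compared alone, runs of title numbers as a block, a length offset, and leaving out each library. Members, lists and tests were chosen with earlier results of these data known. Genes named are, in each comparison, called members with the 5 largest rises and the 5 largest falls; the 3 highest and 3 lowest levels per kilobase; called members that went against the majority, if few; 10 members picked for their known roles; protein-coding members below the sum; all proteins of this ribosome under other symbols; and in each related list the 2 genes with the smallest p in control EAE against healthy and in metformin against control EAE. Rows listed at 0, copies, overlapping genes and the full list of members called in no comparison are also named. Any other is said to be named after its values were seen.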

Additional observations from a re-analysis of the deposited data

Results flagged for a closer look

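In a group of 6 libraries a value was singled out where its gap to the nearest library took up more of the group's range than Dixon's 95% critical value allows. Of 69 groups tested 9 met this, all through control EAE 10 or metformin EAE 22. Chance gives about 1 in 20 for a single group, but these groups share the same libraries, so the 9 cannot be set against that rate. Control EAE 10 was far above its group for Mrpl20 (66.1 CPM, next 40.4), Mrpl32 (18.3, next 14.4), Mrps12 (77.6, next 51.1) and Mrps9 (18.3, next 13.5). Metformin EAE 22 was far below its group for Mrpl54 (15.9 CPM, next 28.3), Mrps18a (15.8, next 22.3), Mrps34 (50.8, next 60.9) and Mrps9 (7.39, next 10.8). The summed level of the members in metformin EAE 22 was 1635 CPM, with the next library at 1872. Their causes were not tested.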

How the results depend on the processing

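Scaling by library totals alone moved most counts: control EAE against healthy gave 22 members higher and 17 lower (median log2 change 0.17), metformin against control EAE 2 and 16 (median -0.17), and metformin against healthy 2 and 8 (median -0.026, against 0.18). Under it the log2 change in control EAE against healthy turned to -0.10 for Esrra, -0.26 for Mrpl10, -0.40 for Mrps11, -0.27 for Mrps30 and -0.37 for Pdf, and that in metformin against control EAE to 0.018 for Mrpl10. With the length trend removed the median in control EAE against healthy was 0.38, with -0.11 for Mrpl10 and -0.22 for Pdf, and metformin against healthy gave 7 higher and 6 lower. In that last comparison DESeq2 and the 2 groups alone each gave 5 lower, and without healthy 3 and 4 together 14 were higher. With pseudogene counts added none fell in control EAE against healthy and 1 was lower in metformin against healthy, and Mrpl23 turned to 0.70 and 0.19.

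Leaving out each library in turn gave 48 to 52 higher and 2 lower in control EAE against healthy, 40 to 46 lower in metformin against control EAE, and 14 to 32 higher and 3 to 5 lower in metformin against healthy; 50 of 53, 40 of 43 and 15 of 27 calls on members were kept throughout. No paired analysis was possible because the groups share no replicate number; runs of title numbers as a block gave 51 higher and 2 lower, 0 and 43, and 25 and 4. The causes of these moves were not tested. Counts cover PCR copies, so low rows such as Mrpl23 and Mrps18c are the least certain.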
